A study of Mus musculus with 162 samples.

Results

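Interneurons of 1 type label, MGE-derived 1, were compared between mouse driver lines in which Cre recombinase marks different populations of embryonic cortical cells. They were chosen by the submitters' labels alone: type MGE-derived 1, quality control passed, and either the Lhx6 Cre line (7 cells) or the Htr3a Cre line (11 cells), so that 18 of the 162 sequenced cells, of which 148 passed, entered the comparison. All cells came from mouse embryos between E17.5 and E18.5, and the RNA of each was drawn with its cytosol into a patch-clamp pipette. The study asked, by its title, about the splicing of neurexins in single cells during development; the counts used here are per gene and do not separate isoforms. How the type label was set is not given in the sources used here. The labels give neither the animal nor the litter of a cell. Each line therefore counted as 1 sample, no test was possible, and line, animals and batch cannot be told apart.

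The medial ganglionic eminence (MGE) is a transient ventral zone of the embryonic forebrain whose progenitors give rise to somatostatin and parvalbumin interneurons of the cortex; the neighbouring caudal ganglionic eminence (CGE) gives rise to most of the others. Lhx6 encodes a LIM homeodomain transcription factor that is switched on as interneurons leave the cell cycle in the MGE and is kept while they migrate and settle, and an Lhx6 Cre line marks cells of that lineage. Htr3a encodes a subunit of the serotonin-gated ion channel and is best known from CGE-derived interneurons. Its Cre line marks any cell that drove the promoter, then or earlier. MGE-derived cells of the Htr3a line are thus defined by their type label and not by the driver.

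Depth was 4658829 to 9427595 counts per cell in the Lhx6 line and 1710224 to 16920377 in the Htr3a line, with a median of 4741 and 4226 genes seen per cell. Levels are CPM, each gene's counts divided by the cell's total and put on the usual CPM scale. Differences between the lines are on the log2(CPM + 1) scale, averaged over the cells of a line, Lhx6 line minus Htr3a line. A gene was measured when at least 5 of the 18 cells had a count, which 7489 genes did. It was called higher or lower when the difference was at least 1 and the mean CPM at least 2-fold apart, both also without the top cell of the higher line. Htr3a line cell 7 stood apart from the rest: it had counts on 10971 genes, the others 2707 to 7455, at least 10 counts on each of 12 microglia markers, and 20353 CPM of microglia RNA in all. Results that rest on it are given without it. MGE-derived 2 cells of the same lines (7 and 17 cells) are set beside the results below. There, 6 of the 17 Htr3a line cells and 0 of the 7 Lhx6 line cells held microglia RNA (at least 3 markers at 10 or more counts). Those 6 cells are included in the MGE-derived 2 values unless said otherwise.

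The genes of the driver lines and somatostatin were looked at first. Whether Lhx6 entered the type label is not known, so its presence does not check the label. Lhx6 was seen in 7 of 7 and 11 of 11 cells. Its level was 243, 1741 and 5066 CPM (lowest, median, highest) in the Lhx6 line and 16.2, 463 and 1484 CPM in the Htr3a line. All 18 cells thus carried the transcript, the ranges overlapped, and 5 of the 7 Lhx6 line cells lay above every Htr3a line cell. Mean Lhx6 was 2035 against 619 CPM, 3.29-fold higher in its own line, and the difference was 2.41 (SD between cells 1.44 and 2.41). The lowest value was that of Htr3a line cell 7, without which the difference was 2.01. In MGE-derived 2 cells the Lhx6 difference was 2.04, not called. Lhx6 lies at chr2:36081953-36105408, minus strand, build GRCm38, as do all positions below.

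Somatostatin (Sst, chr16:23889573-23890958, minus strand), the peptide of a main class of MGE interneurons, was on or off in single cells of both lines. It had counts in 5 of 7 Lhx6 line cells, with levels of 0, 2139 and 6380 CPM, and in 8 of 11 Htr3a line cells, with levels of 0, 143 and 3202 CPM. In both lines cells with high levels stood beside cells at or near 0, and the ranges overlapped. The difference of 2.16 (SD 5.57 and 5.47) was not called, since the fold of mean CPM was 1.61 without the highest cell. It was 0.62 when only cells matched for the number of genes seen were used, 1.18 with the failed Lhx6 line cell of the same label added, and 3.46 at the most without 1 cell. In MGE-derived 2 cells Sst was called higher in the Lhx6 line (4.29), where the median gene stood at -0.74. It had counts there in 7 of 7 and 12 of 17 cells, with medians of 1022 and 152 CPM.

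Htr3a itself (chr9:48899213-48911099, minus strand) was seen in 0 of 7 Lhx6 line cells, for which the exact Clopper-Pearson 95% interval reaches 41.0%, and in 4 of 11 Htr3a line cells (10.9% to 69.2%). These intervals cover the counting of cells with a read only, not the spread between animals or transcripts that were not captured. Those 4 cells held 930, 242, 215 and 186 CPM, and the other 7 cells of the line held none. Most cells of the Htr3a line thus showed no transcript of the gene whose promoter marked them, and the cells with and without it overlapped in Lhx6: the 4 positive cells held 106 to 1484 CPM of Lhx6. With 4 cells Htr3a fell under the filter. Against a floor of 3 counts over the 7 cells, its summed level was at least 2288-fold higher in the Htr3a line, a bound on counting error only. In MGE-derived 2 cells Htr3a was seen in 0 of 7 and 6 of 17 cells.

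The neurexins, presynaptic adhesion molecules whose many splice forms bind different partners across the synapse, were lower in the Lhx6 line. Nrxn2 (chr19:6418731-6544169, plus strand) had counts in 3 of 7 Lhx6 line cells, with levels of 0, 0 and 21.6 CPM, and in 10 of 11 Htr3a line cells, with levels of 0, 17.04 and 314 CPM. Its mean was 5.86 against 86.6 CPM, 14.8-fold lower in the Lhx6 line, a difference of -3.37 (SD 2.13 and 2.87). No Lhx6 line cell passed 21.6 CPM, while 5 Htr3a line cells lay above 70 CPM, so the lines overlapped only at low levels. Nrxn3 (chr12:88722876-90334935, plus strand) had counts in 5 of 7 and 10 of 11 cells, with levels of 0, 16.1 and 248 CPM against 0, 272 and 876 CPM. Its mean was 80.3 against 327 CPM, 4.07-fold lower, a difference of -3.03 (SD 3.33 and 2.81), and both lines held cells between 20 and 250 CPM. Both neurexins were called lower, where 7.56% of all measured genes were. In the MGE-derived 2 cells of the same lines (7 and 17 other cells), 3.37% of 11076 measured genes were called higher and 19.8% lower. There the differences of Nrxn2 and Nrxn3 were -2.09 and -0.95, neither called, and the median gene stood at -0.74. By mean CPM Nrxn2 went the other way, with 86.7 in the Lhx6 line and 38.4 in the Htr3a line. Nrxn3 had means of 465 and 601 CPM.

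**Figure D1:**
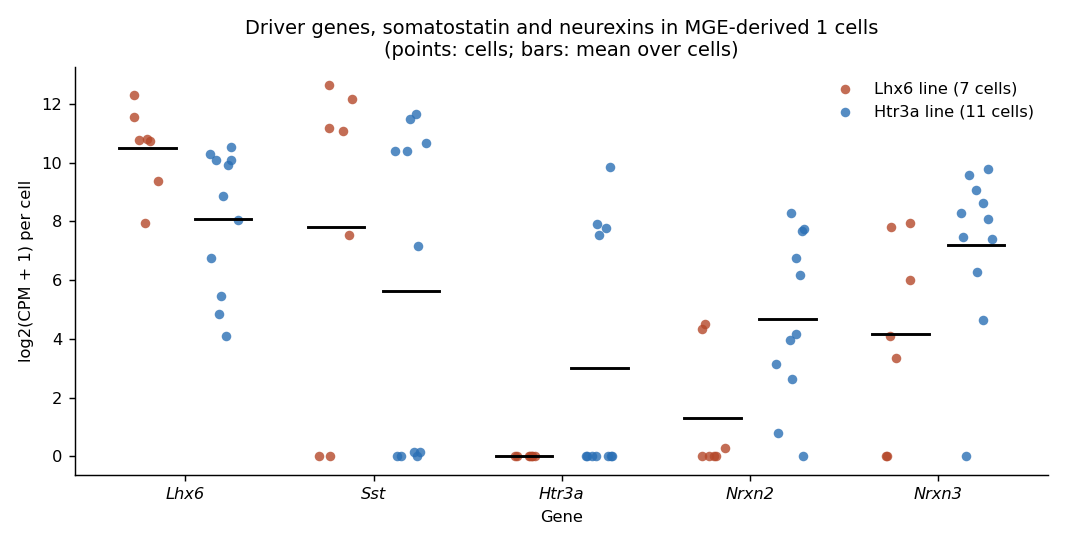
Level of the driver genes, somatostatin and 2 neurexins in every cell, as log2(CPM + 1), for the 7 Lhx6 line and 11 Htr3a line cells; bars are means over cells. Lhx6 is present in all 18 cells, Htr3a is seen in 4 cells of its own line, and Sst is on or off in both lines.

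Over all genes, 826 were called higher in the Lhx6 line (11% of those measured) and 566 lower (7.56%), together 18.6%. The median gene differed by 0.43, and by -0.012 with no filter on low counts, where 962 genes were called higher and 688 lower. After centring on the median the split was 676 higher and 755 lower. It was 663 and 657 with TMM scaling, which moved the median gene to 0.31. Single cells moved the split as well: without Lhx6 line cell 7 it was 704 higher and 743 lower, and without cell 6 it was 701 and 703. Most calls came from genes seen in part of the cells, and 462 of the higher and 218 of the lower calls were of genes detected in 70% or more of the higher line's cells. The cells of the lines did not overlap at all for 7 genes (0.0935%), 4 higher and 3 lower in the Lhx6 line; in MGE-derived 2 cells this held for 0.00903% of genes.

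**Figure D2:**
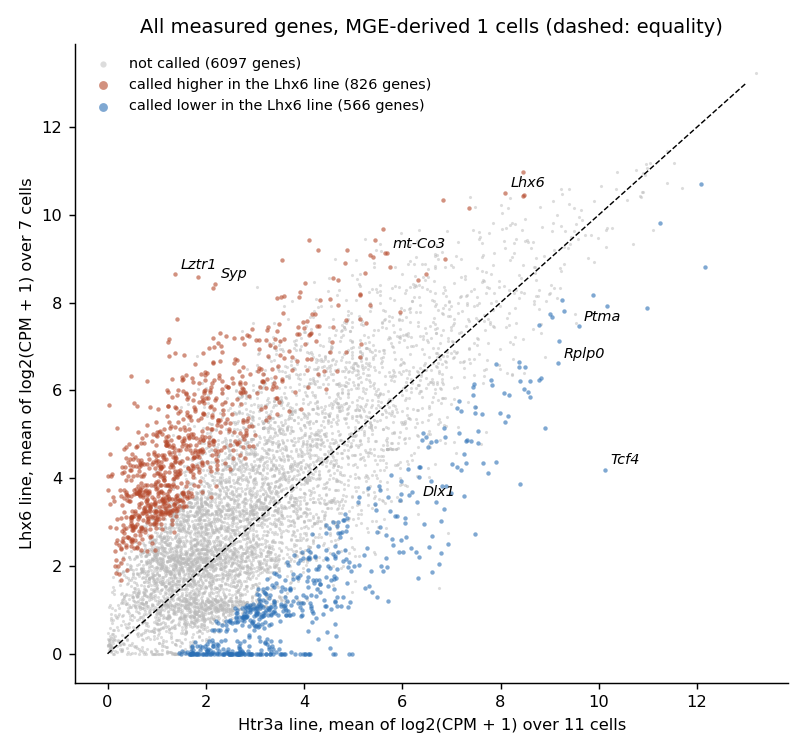
Mean of log2(CPM + 1) in the Lhx6 line (vertical) against the Htr3a line (horizontal) for the 7489 measured genes, with the 826 genes called higher, the 566 called lower and the line of equality. Calls lie on both sides, most of them at low mean levels, where genes are seen in few cells; Lhx6, Ptma, Rplp0 and Tcf4 are among those at high levels.

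The named genes without overlap and with a call were 1 mitochondrial transcript, higher, and 3 widely expressed nuclear genes, lower. Ptma, which encodes the small acidic chromatin protein prothymosin alpha (chr1:86526726-86530712, plus strand), had 42.6, 311 and 363 CPM in the Lhx6 line and 569, 705 and 1442 CPM in the Htr3a line. Its mean was 3.52-fold lower in the Lhx6 line, a difference of -2.13 (SD 1.28 and 0.41). Rps7, a protein of the small ribosomal subunit (chr12:28630854-28635953, minus strand), had 49.4, 88.1 and 158 CPM against 178, 406 and 776 CPM, a difference of -1.95. Every Lhx6 line cell thus lay below every Htr3a line cell for both. Rps29, another protein of that subunit (chr12:69157722-69159186, minus strand), had 11.97, 51.1 and 76.6 CPM against 89.5, 165 and 650 CPM, a difference of -1.98. In the other direction, mt-Co3, subunit 3 of cytochrome c oxidase encoded by the mitochondrial genome, had 359, 497 and 1036 CPM against 10.1, 50.8 and 266 CPM, 8.48-fold higher in the Lhx6 line. Fam177a did not overlap either but rested on 1 to 8 counts per Lhx6 line cell and none in the Htr3a line, and was not called. The remaining 2, both called higher, are not named by the rule for predicted genes. In MGE-derived 2 cells mt-Co3 was again called higher (difference 4.64) and Ptma again called lower (-1.12), while Rps29 and Rps7 stood at -0.68 and -0.76, not called.

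Ribosomal protein genes formed the list with the most calls, all in 1 direction. They encode the protein parts of the cytosolic ribosome and are among the most highly transcribed genes of any cell. Of 25 listed and measured genes, 14 were called lower in the Lhx6 line and none higher, against 7.56% called lower of all genes; the list's median difference was -1.32, against 0.43 over all genes. The whole family, taken by name after these values were seen, gave 36 of 83 measured genes called lower and 1 higher, with 69 below 0 and a median of -1.21. Leaving out 1 cell at a time gave 33 to 42 called lower, leaving out Htr3a line cell 7 gave 34, and summing the counts of each line gave 55. In MGE-derived 2 cells, where 19.8% of all genes were called lower, 21 members of the family were called lower and 1 higher, a share near that of all genes. Of the 83 genes, 75 lay below 0 there, as did 68.5% of all genes measured in both types. The family's median there was -0.85, and that of all those genes -0.72.

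The same held per cell. Ribosomal protein genes together took 0.712%, 0.856% and 1.13% of a cell's counts (lowest, median, highest) in the Lhx6 line and 0.964%, 2.42% and 3.39% in the Htr3a line. Htr3a line cell 1 was the only one of its line within the range of the Lhx6 line cells, and the next lowest stood at 1.65%. The failed Lhx6 line cell, left out of the comparison, had 1.99%. In MGE-derived 2 cells the shares were 0.743%, 1.30% and 1.70% in the Lhx6 line and 1.03%, 2.19% and 9.67% in the Htr3a line. There the ranges overlapped more, with 12 of the 17 Htr3a line cells above the highest Lhx6 line cell. The cell at 9.67% held 12 microglia markers at 10 or more counts. Many ribosomal protein genes have processed pseudogenes of near-identical sequence, so the counts of single members are uncertain.

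Named by size of difference, Rps24, a small-subunit protein, had 0, 34.8 and 89.7 CPM in the Lhx6 line and 0, 221 and 752 CPM in the Htr3a line (difference -3.56). Rpl5, which binds 5S ribosomal RNA, had 0, 150 and 314 CPM against 118, 218 and 1044 CPM (-2.81). For both genes the median Lhx6 line cell lay below the median Htr3a line cell and the ranges overlapped. Rplp0, which anchors the stalk of the large subunit, had 0.167, 161 and 618 CPM against 9.38, 739 and 1516 CPM (-2.55); 1 Lhx6 line cell, cell 5, stood far below the others.

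Transcripts of ribosomal protein genes are known to begin with a run of pyrimidines, through which their translation is regulated. The stretches from 30 bases before to 20 bases after the RefSeq start (build GRCm38.p6) of 4 of the genes lower in the Lhx6 line are shown to let the runs be compared, 5′ to 3′ on the transcript strand, with the longest run of C and T in capitals; Rps24 has 2 starts. Counted from the start, the runs begin at -29 for Rps7, at -3 and -30 for the starts of Rps24, at -20 for Rpl5 and at 12 for Rplp0, so that only the run at the first Rps24 start spans the start. Their positions are chr12:28635934-28635983 (minus strand) for Rps7, chr14:24490648-24490697 and chr14:24490723-24490772 (plus) for Rps24, chr5:107900498-107900547 (plus) for Rpl5 and chr5:115559437-115559486 (plus) for Rplp0.
Rps7: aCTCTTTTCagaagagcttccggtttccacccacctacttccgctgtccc
Rps24, first start: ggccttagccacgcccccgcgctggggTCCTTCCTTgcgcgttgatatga
Rps24, second start: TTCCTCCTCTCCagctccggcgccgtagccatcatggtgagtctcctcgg
Rpl5: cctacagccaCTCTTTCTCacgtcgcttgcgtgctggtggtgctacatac
Rplp0: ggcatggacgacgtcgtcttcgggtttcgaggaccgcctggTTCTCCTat

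A run of at least 8 bases of C or T, searched on the transcript strand only with a length set after the values were seen, lay in the windows of 50.8% of 61 ribosomal protein genes with an entry and 23.7% of 5781 measured genes with one. Among ribosomal protein genes it was in 42.3% of 26 called lower and 57.1% of 35 that were not. The share was thus higher in the family than over all genes but not higher among the members called lower, with no test of either.

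Mitochondrially encoded transcripts went both ways in the same cells. The mitochondrial genome encodes 13 proteins of the respiratory chain and ATP synthase and 2 ribosomal RNAs, and 5 of the 13 were called higher in the Lhx6 line, beside 11% of all genes: mt-Co3, mt-Atp6, mt-Atp8, mt-Co2 and mt-Nd4l. mt-Atp6 had 100, 558 and 965 CPM against 13.8, 57.1 and 294 CPM (difference 3.05), and mt-Atp8, which overlaps it, had 33.9, 181 and 265 CPM against 4.70, 20.3 and 108 CPM (2.89). By contrast mt-Cytb, mt-Nd1, mt-Co1, mt-Nd4 and mt-Nd2 had differences of -1.08, -1.35, -1.46, -1.99 and -2.16 and were not called. The 12S ribosomal RNA mt-Rnr1 was called lower, with 0, 95.3 and 761 CPM against 0, 521 and 955 CPM (-2.74). In MGE-derived 2 cells, where 3.37% of all genes were, 5 of the 13 were called higher as well, mt-Nd3 standing in for mt-Nd4l, and none lower. Copies of mitochondrial sequence in the nuclear genome can take or lose such reads, so these counts are uncertain. The protein-coding mitochondrial transcripts together took a median of 0.586% of counts in the Lhx6 line and 1.12% in the Htr3a line, and in MGE-derived 2 cells, the other way round, 1.26% and 0.813%. Of 21 nuclear genes of the respiratory chain and ATP synthase, Sdhb (-2.16) and Cox6a1 (-2.19) were called lower and none higher, near the 7.56% over all genes.

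**Figure D3:**
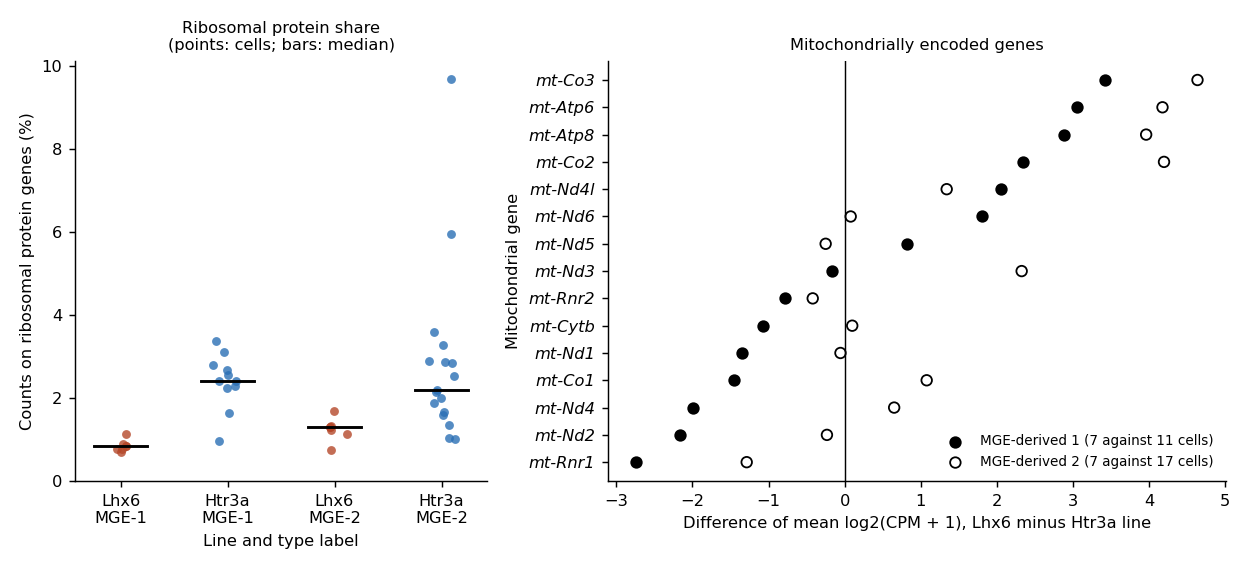
Left, share of each cell's counts on ribosomal protein genes, in percent, by line for MGE-derived 1 and MGE-derived 2 cells, with bars at the median; 10 of 11 Htr3a line MGE-derived 1 cells lie above the highest Lhx6 line cell at 1.13%. Right, difference between the lines for 15 mitochondrial genes in MGE-derived 1 (filled) and MGE-derived 2 cells (open); the filled points run from 3.42 for mt-Co3 down to -2.74 for mt-Rnr1, and the open ones reach 4.64.

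The 12 largest differences toward the Lhx6 line ran from 5.41 to 7.28, taken among called genes that 70% or more of the Lhx6 line cells had, so their presence in most of those cells follows from the choice. Lztr1, an adaptor of a ubiquitin ligase that acts on RAS proteins, had 119, 476 and 735 CPM in the Lhx6 line and counts in 6 of 11 Htr3a line cells, with a median of 0.0591 and a highest value of 264 CPM (difference 7.28). Asns, asparagine synthetase, had 177, 339 and 723 CPM and was seen in 3 of 11 Htr3a line cells, at up to 297 CPM (6.75). Syp, the synaptic vesicle protein synaptophysin, had 223, 396 and 542 CPM and was seen in 5 of 11 Htr3a line cells, the highest at 647 CPM (6.23). All 3 thus had counts in 7 of 7 Lhx6 line cells and a median at or near 0 in the Htr3a line, and single Htr3a line cells reached the Lhx6 line's range. Scn9a, a voltage-gated sodium channel, was seen in 6 of 7 Lhx6 line cells, with a median of 190 CPM, and by 2 counts in 1 Htr3a line cell (5.63). Hikeshi, a nuclear import carrier for heat shock proteins, was seen in 6 of 7 and 1 of 11 cells, with a median of 166 CPM in the Lhx6 line (5.86); its only Htr3a line cell was cell 7. The other 7 were Dpp3, Rbm18, Pum3, Btbd10, Lrrn3, Abcf3 and Tsnax, 3.64- to 22.9-fold higher by mean CPM.

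The 12 largest differences toward the Htr3a line, taken likewise among genes that 70% or more of its cells had, ran from -4.25 to -5.92. Tcf4, a basic helix-loop-helix transcription factor of the developing brain, was seen in 11 of 11 Htr3a line cells at 129, 1525 and 5343 CPM and in 4 of 7 Lhx6 line cells at 0, 0.167 and 1482 CPM (difference -5.92). In the Lhx6 line it was either at 512 CPM or more, in 3 cells, or absent but for 1 count. Bud23, a methyltransferase of ribosomal RNA, was seen in 0 of 7 and 8 of 11 cells, with a median of 93.7 CPM in the Htr3a line (-4.92). Heatr3 was seen in 0 of 7 and 9 of 11 cells, with a median of 38.2 CPM there (-4.59). Lrrc8a, a subunit of the volume-regulated anion channel, was seen in 0 of 7 and 8 of 11 cells (-4.62), but 68.3% of its exonic bases overlap other annotated genes and its counts are uncertain. A transcript at 0 in all 7 cells may be absent or not captured. Rpl29, of the large ribosomal subunit, was seen in 11 of 11 Htr3a line cells at 6.76, 313 and 878 CPM and in 3 of 7 Lhx6 line cells at up to 120 CPM (-4.75). Kif2a, a kinesin that takes microtubules apart, was seen in 1 of 7 and 9 of 11 cells (-4.51), and Polr1c, a subunit of RNA polymerases I and III, in 2 of 7 and 9 of 11 (-4.59). Pitpnc1, Dctn4, Atad1, Afap1 and Tbl1x completed the 12.

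**Figure D4:**
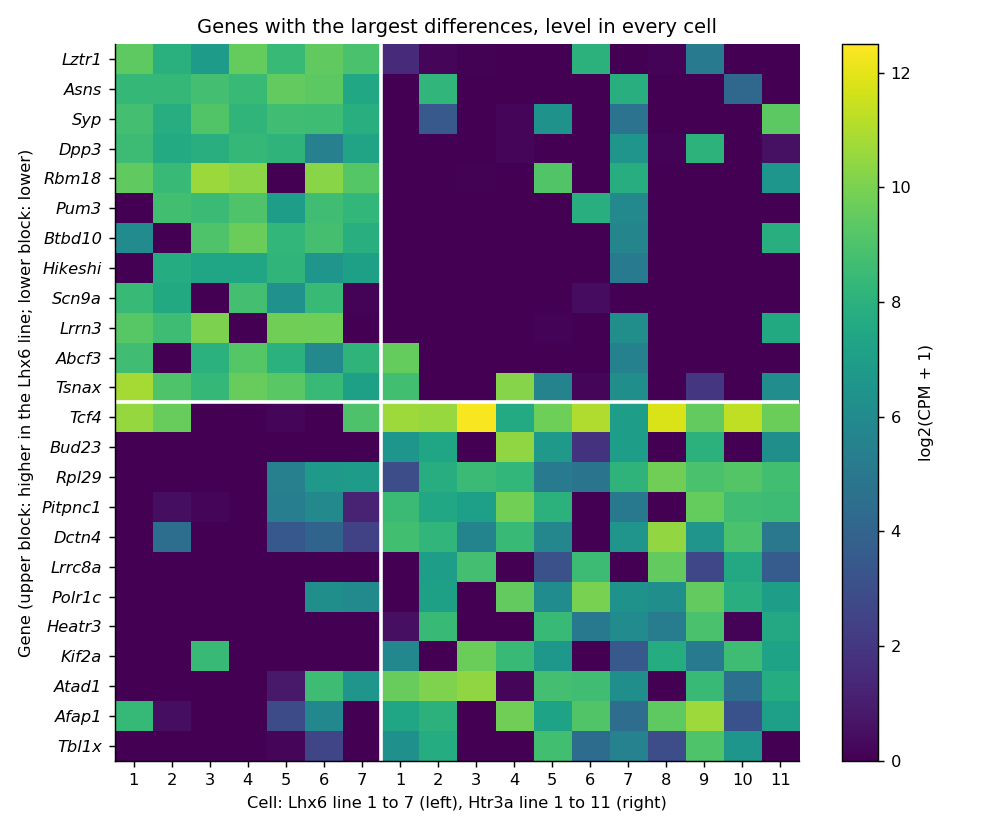
Level of the 24 genes with the largest differences in every cell, as log2(CPM + 1) by colour, with Lhx6 line cells 1 to 7 on the left and Htr3a line cells 1 to 11 on the right; the upper 12 genes are higher and the lower 12 lower in the Lhx6 line. Htr3a line cell 7, which held microglia RNA, carries 10 of the 12 genes of the upper block. Tsnax, Lztr1, Syp and Dpp3 are seen in 7, 6, 5 and 5 cells of that line. In the lower block Bud23, Lrrc8a and Heatr3 are seen in no Lhx6 line cell, and the other genes in 1 to 5.

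These leading genes were set beside MGE-derived 2 cells, which share the lines but no cell with the comparison. Of the 12 genes highest in the Lhx6 line, 6 lay above 0 and 6 below 0 there; Syp was again called higher (2.59), and Dpp3 (-2.76) and Hikeshi (-4.10) were called lower. Of the 12 lowest, 8 lay below 0, with Bud23 (-2.04), Kif2a (-4.30) and Afap1 (-2.62) called lower, and Tcf4 stood at 0.20. Over 7430 genes measured in both, 50.8% had the same sign, and of those called in MGE-derived 1 cells 55.9% had. Genes called lower lay below 0 in MGE-derived 2 cells in 79.6% of cases and genes called higher in 60.6%, while 68.5% of all genes did, the median gene there being at -0.72. Without the cells of either type that held microglia RNA, the share of called genes with the same sign was 54.7%. Whether the line difference itself differs between the types was not tested.

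The lists of interneuron identity genes were short, and their calls are given beside 11% called higher and 7.56% called lower over all genes. Of 12 measured MGE markers, Lhx6 was the only one called higher and Maf, a transcription factor of migrating MGE interneurons, the only one called lower, with 0, 0 and 157 CPM in the Lhx6 line and 0, 84.1 and 1139 CPM in the Htr3a line (difference -4.18). The list's median was -0.77. Of 5 measured CGE markers, 3 were called lower and none higher, with a median of -2.17. These were Npas3 (-2.91) and Nr2f1 (-2.67), transcription factors, and Synpr, the vesicle protein synaptoporin (-2.17). Nr2f1 was seen in 3 of 7 and 8 of 11 cells, with highest values of 351 and 873 CPM, so cells with it occurred in both lines. In MGE-derived 2 cells none of the CGE markers was called lower and their median was 0.55. Nr2f1 (-2.16) and Npas3 (-1.28) still lay below 0 there, and below the median gene at -0.74. Synpr (0.55) and the CGE markers without a call in MGE-derived 1 cells lay above 0.

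Genes of GABA synthesis, transport and fate were present in both lines. Gad1, the main GABA-synthesizing enzyme, was chosen later and does not check the label either. It was seen in 7 of 7 and 9 of 11 cells, with means of 862 and 802 CPM. Its difference was 1.82, but it was not called, since the means were less than 2-fold apart. Of 10 measured genes of the list, 3 were called lower and none higher, beside 7.56% and 11% of all genes. These were the homeobox factors Dlx1 (-2.85) and Dlx2 (-3.11), which drive interneuron fate, and the vesicular GABA transporter Slc32a1 (-1.46). Dlx1 was seen in 3 of 7 Lhx6 line cells, at 92.6, 451 and 460 CPM, and in 10 of 11 Htr3a line cells with a median of 362 CPM, so the Lhx6 line cells that held it lay within the range of the others. Slc32a1 rested on low levels, at most 14.8 and 91.6 CPM. The list's median was 0.02. Of 4 measured neuropeptide genes none was called; neuropeptide Y (Npy) reached 29066 CPM in 1 Lhx6 line cell and had a median of 0.164 CPM in that line and 2.83 CPM in the other.

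Receptors and channels held single calls in both directions, beside 11% of all genes called higher and 7.56% lower. Among 12 ionotropic glutamate receptor genes, Gria2, the AMPA receptor subunit that limits calcium entry, was called higher, with 93.6, 596 and 1595 CPM in the Lhx6 line and 0, 144 and 583 CPM in the Htr3a line (difference 3.74). The AMPA subunit gene Gria1 (-1.95) and the kainate subunit gene Grik2 (-2.15) were called lower, so members of 1 receptor family stood on opposite sides. Among 11 genes that set the response to GABA, receptor subunits and chloride transporters among them, 2 were called higher, among them the subunit gene Gabra3 (2.51), and 1 lower. Gabra3 was seen in 3 of 7 and 2 of 11 cells. Of 18 voltage-gated channel genes, 3 were called higher, among them the sodium channel beta subunit Scn3b (4.71), and 3 lower, among them Scn8a (-3.53). Scn3b was seen in 7 of 7 and 5 of 11 cells, and Scn8a in 2 of 7 and 9 of 11. None of these 3 lists had more than 3 calls in 1 direction. In MGE-derived 2 cells Scn8a was again called lower (-2.64). Gria2 (-0.44), Gria1 (0.04), Grik2 (0.76), Gabra3 (0.81) and Scn3b (0.04) were not called there.

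Of 20 presynaptic release genes, Syp and the vesicle SNARE Vamp2 were called higher and none lower, about the share over all genes (11%), with a list median of 0.87. Vamp2 had 162, 633 and 808 CPM in the Lhx6 line and 0.236, 222 and 672 CPM in the Htr3a line (difference 2.13). Of 14 neurexin ligands and partners, Nlgn3, a neuroligin (-1.59), and Adgrl2, a latrophilin (-1.67), were called lower; 41.2% of the exonic bases of Nlgn3 overlap another annotated gene. The list's members went both ways, with a median of 0.42 beside 0.43 over all genes; 7.56% of all genes were called lower. Of 24 RNA-binding splicing regulators, Khdrbs3, also known as SLM2, which acts on neurexin splicing, was called higher (3.38, and 2.89 with a call in MGE-derived 2 cells), and Elavl1 (-3.97), Qk (-3.77) and Srrm4 (-1.87) were called lower. Khdrbs3 was seen in 5 of 7 cells with a median of 360 CPM and in 5 of 11 with a median of 0. In MGE-derived 2 cells Vamp2 (0.62), Nlgn3 (0.40), Adgrl2 (0.75), Elavl1 (-1.75), Qk (-2.23) and Srrm4 (-0.39) were not called.

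The next 3 lists are given beside 11% of all genes called higher and 7.56% called lower. Of 21 migration and guidance genes, Ephb1 was called higher (2.35). Ackr3, the scavenger receptor for the chemokine that guides interneurons (-2.66), Cdk5r1, the activator of the kinase Cdk5 (-2.51), and Plxna2 (-2.02) were called lower. Ackr3 was seen in 1 of 7 and 4 of 11 cells, and it and Cdk5r1 were also called lower in MGE-derived 2 cells (-3.87 and -2.85). Ephb1 (-0.11) and Plxna2 (-0.94) were not called there. Of 16 pan-neuronal genes, Nefl was called higher (3.06) and Ncam1 lower (-1.48). In MGE-derived 2 cells Nefl stood at -0.68 and Ncam1 at -1.17, neither called. None of 9 immediate early and heat shock genes was called; Hspa8 had 737, 1362 and 2733 CPM in the Lhx6 line and 1127, 1627 and 4598 CPM in the Htr3a line.

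**Figure D5:**
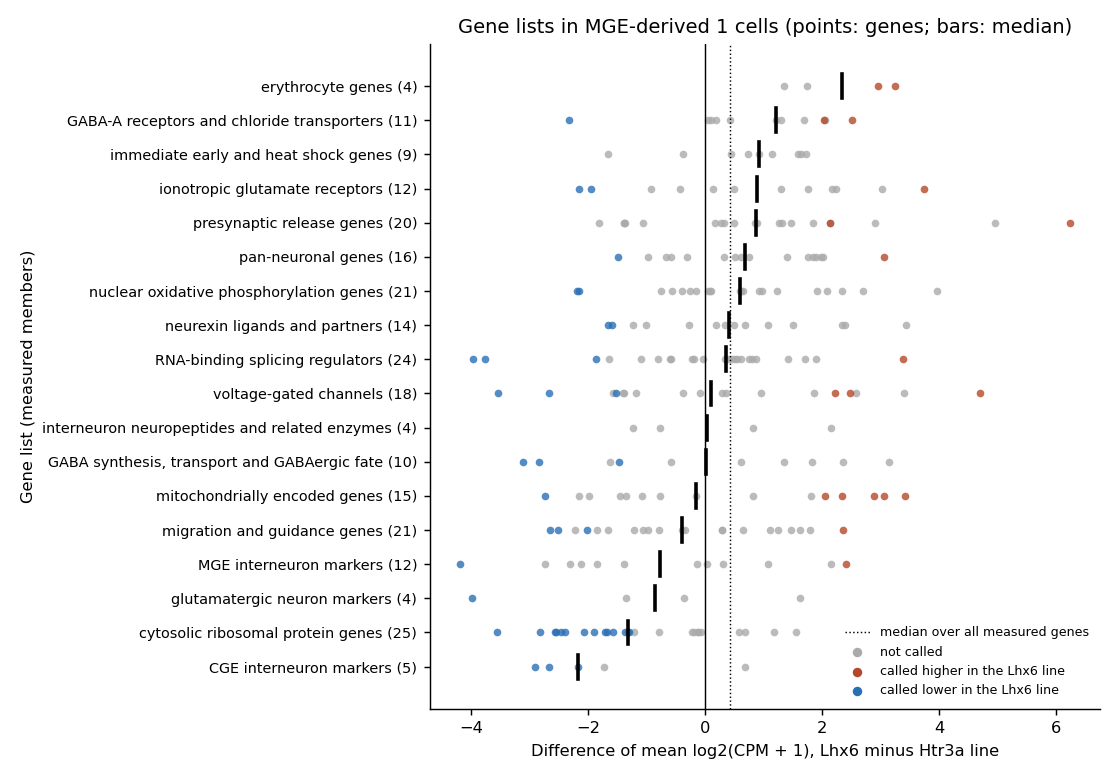
Difference between the lines for each measured gene of the lists with at least 3 measured members, coloured by call, with the median of each list as a bar and the median over all genes (0.43) as a dotted line. Ribosomal protein genes lie mostly to the left of 0, with a median of -1.32, and most other lists spread over both sides.

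Markers of other cell types were summed in each cell. Erythrocyte genes were at 7.74 to 2426 CPM in the Lhx6 line, with a median of 39.2, and at 0 to 176 CPM in the Htr3a line, with a median of 8.19; 6 of 7 and 5 of 7 genes had counts. The haemoglobin genes Hba-a1 (3.24) and Hbb-bs (2.95) were called higher in the Lhx6 line, and each has a near-identical neighbour that can take its reads. Microglia markers stood at 0.164 to 561 CPM in the Lhx6 line and at 0 to 20353 CPM in the Htr3a line, 6 of 12 and 12 of 12 having counts, the high end being cell 7 and the next 340 CPM. Astrocyte markers reached 125 CPM in the Lhx6 line and 7748 CPM in the Htr3a line, again in cell 7, with Aldh1l1, Gja1 and Mlc1 at 0 in all cells. Glutamatergic markers had a median of 133 CPM in the Lhx6 line (0 to 1287) and 528 CPM in the Htr3a line (0 to 1395). Of them 6 of 14 and 12 of 14 had counts, 4 were measured, Slc17a6 and Neurod1 were at 0, and Nfib was called lower (0 of 7 and 7 of 11 cells, -3.98). Of the others, the progenitor gene Ptprz1 (3.46) and the oligodendrocyte gene Mbp (2.35) were called higher and the cyclin Ccnd2 lower (-2.67). Mbp was the only 1 of 9 oligodendrocyte genes measured. It had means of 43.0 and 4.76 CPM in the Lhx6 and Htr3a lines, but the summed list had 53.9 and 55.5 CPM. Ptprz1, 1 of 2 measured progenitor genes, had means of 81.3 and 5.44 CPM, and the summed list 209 and 158 CPM. The oligodendrocyte list as a whole thus did not follow Mbp in size. The summed progenitor list had medians of 152 and 32.7 CPM, and its highest Htr3a line cell, at 713 CPM, was cell 7. That list was thus higher in the Lhx6 line by the median and, by less, by the mean. Cajal-Retzius markers had a median of 59.7 CPM in the Lhx6 line (0.138 to 767) and 943 CPM in the Htr3a line (0 to 3223). Counts were on 4 of 10 and 5 of 10 genes, mostly Reln, which MGE interneurons also express, with Trp73, Lhx5 and Ebf3 at 0. The part of such RNA in the differences between the lines was not tested. Without cell 7, the counts were 829 genes higher and 460 lower. Of the marker genes with a call, Ptprz1 (-1.50) and Ccnd2 (-2.91) were called lower in MGE-derived 2 cells. Mbp (0.99), Nfib (-2.37), Hba-a1 (0.46) and Hbb-bs (0.12) were not called there.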

How the data were processed

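Cells were grouped by the submitters' labels for type, driver line and quality. The submitters' processing notes name the tools Trimmomatic, STAR and featureCounts and the build GRCm38; versions and settings are not given in the sources used here. The authors deposited whole-number counts per Ensembl identifier (22880 rows), which were used as deposited, counts per gene symbol, held here in part (9723 genes), and a normalized signal table. In the last, 99.8% of values deposited by the authors lay within 0.1% of the counts over 1 factor per cell. GENCODE M21 gave symbols for 22570 rows and none for 310; summing by symbol left 22879 genes. No cells had identical counts.

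CPM, the difference of mean log2(CPM + 1), the pseudocount of 1 and the rule for calls are as given with the results. With each line 1 sample, no count model or test was run, and SDs are between cells. Intervals and floors cover counting error only, since reads without molecular identifiers are not molecules. The script was tested on simulated data. Named genes were the driver genes, Sst, Nrxn2 and Nrxn3, the 12 largest called differences in each direction among genes detected in 70% or more of the higher line's cells, genes whose cells do not overlap, and up to 4 called members of each of 26 lists, or with none called the 2 of highest level; others are said to be chosen later. Some genes are not reported here. Members, lists and rules were chosen with earlier results of these data known. Positions are from GENCODE M21, promoter sequences from RefSeq (GRCm38.p6). Python 3.11.15, pandas 2.3.3, R 4.3.3 and edgeR 4.0.16 (TMM factors only) were used. Alternatives were scaling, pseudocount, summing, filter, depth, cells of like gene number, the failed cell, the symbol table and leaving out each cell; 2 more, without cells holding microglia RNA and centring, were chosen after seeing the data.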

Additional observations from a re-analysis of the deposited data

Results flagged for a closer look

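In the 7 Lhx6 line cells, 80 named genes were examined for a cell far from the other 6. A cell was marked by Dixon's 95% critical value for 7 cells, which chance alone exceeds in about 1 of 20 groups of normally distributed values. That rate does not carry over here, since cells often had no count and many genes were chosen by their detection or call. The number of marked genes therefore cannot be compared with it. For 21 genes 1 cell was so marked, 11 times the highest and 10 times the lowest; the Htr3a line, with more than 10 cells, was not examined. No cell carried most of them: cell 1 had 5, cell 2 had 4, cells 3, 5, 6 and 7 had 3 each, and cell 4 had none.

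Genes high in most Lhx6 line cells had a single low one. Pum3 and Hikeshi in cell 1, Btbd10 and Abcf3 in cell 2 and Rbm18 in cell 5 were at 0 CPM, as was Cox6a1 in cell 1. Dpp3 was at 42.9 CPM in cell 6, Gria2 at 93.6 CPM and Rplp0 at 0.167 CPM in cell 5, and Rps29 at 11.97 CPM in cell 3.

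Genes low in the line had a single high cell. In cell 1, Slc32a1 stood at 14.8 CPM and Apoe at 1.72 CPM. Cell 2 held Maf at 157 CPM and Cacna2d2 at 24.1 CPM. Cell 3 held Kif2a at 346 CPM and Elavl1 at 472 CPM. Ackr3 was at 25.9 CPM and Tbl1x at 5.11 CPM in cell 6. Cell 7 held Synpr at 80.5 CPM, Slc1a2 at 125 CPM and Scn8a at 61.3 CPM.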

How the results depend on the processing

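No paired analysis was possible because the labels give no replicate numbers shared between the lines and no test was run. No named gene with a call changed sign under the alternatives run, and neither did the differences of Lhx6, Sst and Htr3a. For called genes, leaving out a cell of the higher line could not change the sign, since the rule for calls already holds without its top cell. Among the rest, 5 named genes without a call and 10 of 18 list medians changed sign. The other called genes were not followed one by one. The median gene was -0.012 with no filter on low counts. The counts of genes higher and lower in the Lhx6 line, 826 and 566, were 326 and 220 in the table by symbol, which holds fewer genes, and 3 genes did not overlap there. Genes lower were 302 with a pseudocount of 10 and 885 from summed counts. Genes whose cells do not overlap were 17 among cells of like numbers of genes (7 and 7 cells), where fewer cells enter. The share of called genes with the same sign in MGE-derived 2 cells, 55.9%, was 59.9% with TMM factors, 59.6% from summed counts, 52.1% among cells of like numbers of genes, 58.7% with the failed cell and 59.0% after centring; the cause was not tested. The Htr3a difference from summed counts was -7.23, where the pseudocount sets the size. Leaving out 1 cell at a time gave 701 to 915 genes higher, 458 to 743 lower, 7 to 11 without overlap, a median gene of 0.26 to 0.65, a share of 52.1% to 60.1%, and differences of 2.01 to 2.84 for Lhx6, 1.35 to 3.46 for Sst and -3.31 to -2.32 for Htr3a. Of 868 values of 84 named genes under other settings, 56 moved by more than the spread between cells. Limits: 7 and 11 cells of unknown animals carry the comparison, a transcript at 0 may not have been captured, and depth by read count does not give molecules.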
